A study of Mus musculus with 90 samples.

Results

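Slc22a7, Slc22a26, Slc22a27, Slc22a28 and Slc22a30 are 5 genes of the Slc22 family of solute carriers, described here in mouse liver. They were chosen by name from results of these same data, as carriers read as higher in livers without the glucocorticoid receptor (GR), so their difference between genotypes is given as a description with no test. All 5 were present among the 27654 gene IDs of the count tables. The data do not bear out that working name for Slc22a7 and for most of the day for Slc22a30: only Slc22a26 and Slc22a27 were clearly higher in mutant livers on both diets, and Slc22a28 was modestly higher on control diet.

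Organic anion transporters of the Slc22 family sit in cell membranes and carry negatively charged metabolites, hormones conjugated to sulfate, bile acids, prostaglandins and drugs. Slc22a7, also called OAT2, takes up such anions from blood into hepatocytes. The other members belong to a group of rodent gene copies in 1 chromosomal row, whose natural cargo is less well known. Many mouse liver carriers and cytochrome P450 enzymes differ between males and females under the control of growth hormone, which is released in pulses in males and more evenly in females, and GR is a hormone-activated transcription factor that responds to the daily corticosterone peak.

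The experiments ask how hepatocyte GR takes part in the daily liver response to caloric restriction. RNA of 90 livers was sequenced, each from 1 male C57BL/6J mouse. A time series held 6 time points 4 h apart, from Zeitgeber time (ZT) 0, the start of light, to ZT20, with lights off at ZT12. Its mutants (GR LKO) were GRfl/fl x Alb-Cre, in which the albumin promoter drives Cre in hepatocytes, and its WT mice were GRfl/fl without Cre, so both genotypes carried the floxed alleles. Other liver cells of the mutants keep the receptor.

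The time series on control diet (ctrl.) had 22 WT and 20 GR LKO livers, with 3 or 4 in each group, and that on caloric restriction (cal. res.) had 18 and 18, with 3 in each group. A separate diet experiment compared 3 WT livers on cal. res. with 3 on ctrl. at ZT12, and a corticosterone experiment compared 3 WT livers from mice given daily corticosterone (CORT) with 3 control livers at ZT12, all on the control feeding. The paper gives these controls vehicle injections, while their labels name only night feeding, so whether the comparison includes the injection itself is uncertain. The mice of these 2 experiments are labelled WT with no floxed allele named. Diets began at 12 weeks of age. Control mice ate freely until a final week of feeding at night only, and restricted mice received reduced food at ZT12. The titles of the 3 control libraries of the diet experiment carry AL, for ad libitum, while their treatment label names night feeding; if those mice ate freely to the end, feeding time would differ along with the amount. In the time series the diets were sequenced as separate sets of libraries, so diet and library set cannot be told apart there, and diet was tested in the separate experiment.

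Median depth was 13427104 counts per library for the series on ctrl. (10057544 to 17089004) and 17386700 for the series on cal. res. (14235473 to 20788575). The diet experiment held a median of 37407547 (36442195 to 39492146) and the corticosterone experiment 14431389 (13739631 to 16077943). Levels are counts scaled to library size (CPM) after TMM normalization. A count of 0 allows up to 3 counts, which is 0.299 CPM in the shallowest library of the ctrl. series and 0.0752 CPM in the deepest library of the diet experiment, for counting error only.

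Nr3c1, the targeted gene that encodes GR, was lower in all GR LKO livers than in all WT livers at 6 of 6 time points on both diets. On cal. res. it ranged from 70.1 to 113 CPM in 18 WT livers (median 93.9) and from 21.4 to 32.1 in 18 GR LKO livers (median 24.9). On ctrl. it ranged from 73 to 118 CPM in 22 WT livers (median 87.3) and from 16.2 to 29.1 in 20 GR LKO livers (median 21.5). Averaged over the day, its log2 fold change was -1.84 (SE 0.0352, adjusted p = 1.01e-24) on cal. res. and -1.96 (SE 0.0473, adjusted p = 5.13e-26) on ctrl., by edgeR quasi-likelihood tests with Benjamini-Hochberg adjustment, which also gave every adjusted p below unless DESeq2 is named, except those of daily rhythm, which are of JTK_CYCLE unless edgeR is named. The RNA that remained in the mutants was not assigned to a cell type.

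The tissue carried its defining markers. The 6 hepatocyte markers found of 7 listed summed to 67080 to 113700 CPM in the ctrl. series, led by Alb. Kidney tubule markers, listed because several Slc22 carriers are abundant in kidney, summed to at most 0.632 CPM in any library of the cal. res. series, with Umod, Slc12a1 and Cdh16 at 0. In bulk tissue, fewer cells of a type and less RNA per cell cannot be told apart. Exocrine pancreas markers were high in 1 library of each series, 560 CPM in cal. res. ZT12 WT replicate 3 and 268 CPM in ctrl. ZT16 WT replicate 2, against series medians of 0.107 and 0.235, and their part in the values of those libraries was not tested.

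By day-average fold change, Slc22a26 set the genotypes apart most among the 5 genes. On ctrl. its level ran from 0.225 to 1.31 CPM in 22 WT livers (median 0.437) and from 3.36 to 27.5 in 20 GR LKO livers (median 13.6). On cal. res. it ran from 1.43 to 113 CPM in 18 WT livers (median 4.84) and from 27 to 228 in 18 GR LKO livers (median 145). At ZT12 on cal. res., WT levels were 5.2, 2.44 and 18.9 CPM, and mutant levels were 212, 190 and 210. Without WT replicate 3, the liver with pancreas RNA, the ZT12 log2 fold change on cal. res. was 5.73 instead of 4.49. All GR LKO livers lay above all WT livers at 6 of 6 time points on ctrl. and at 5 of 6 on cal. res. The exception was ZT8 on cal. res., where WT replicate 2 held 113 CPM and the other WT livers 13 and 6.29, while the lowest GR LKO liver held 100.2.

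The day-average log2 fold change of Slc22a26 was 4.62 (SE 0.215) on ctrl. and 3.93 (SE 0.374) on cal. res. By time point it ran from 4.15 (ZT16) to 5.01 (ZT12) on ctrl. and from 1.76 (ZT8) to 5.32 (ZT0) on cal. res., where the ZT8 value includes the WT liver at 113 CPM.

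Slc22a27 ran in parallel. On ctrl. it ranged from 0.0751 to 1.16 CPM in WT livers (median 0.573) and from 1.81 to 9.79 in GR LKO livers (median 4.22). On cal. res. it ranged from 0.976 to 24 CPM in WT livers (median 4.88) and from 7.17 to 60.4 in GR LKO livers (median 40.9). At each of 6 time points on both diets, all GR LKO livers were above all WT livers of that time and diet. The day-average log2 fold change was 2.88 (SE 0.165) on ctrl. and 2.52 (SE 0.243) on cal. res. Of all genes tested, 0.288% (37 of 12834) on ctrl. and 0.797% (104 of 13041) on cal. res. had all GR LKO livers above all WT livers at 6 of 6 time points. Nothing is read from that share, since the genotype difference chose the members.

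Slc22a28 differed little between genotypes and much between the ctrl. and cal. res. series, where diet and library set cannot be told apart. On ctrl. it ranged from 15.5 to 33.5 CPM in WT livers (median 24.1) and from 26 to 44.4 in GR LKO livers (median 32.5), with all GR LKO above all WT at 2 of 6 time points, ZT0 and ZT20. On cal. res. it ranged from 0.545 to 15 CPM in WT livers (median 1.4) and from 0.239 to 39.1 in GR LKO livers (median 1.24), and the genotypes overlapped at 6 of 6 time points. The day-average log2 fold change was 0.52 (SE 0.0755) on ctrl. and -0.23 (SE 0.324) on cal. res., the latter from -0.531 to -0.0426 with livers or a time point left out.

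Slc22a30 and Slc22a7 overlapped between genotypes at most time points. On ctrl. the median of Slc22a30 was 260.5 CPM for WT (range 201 to 297) and 230 for mutants (range 198 to 325). Under restriction it was 189 for WT (range 97.5 to 304) and 168 for mutants (range 108 to 341). Its day-average log2 fold changes were -0.08 (SE 0.0533) and -0.05 (SE 0.0734). At ZT12 on cal. res. WT levels of 102 to 121 CPM and mutant levels of 133 to 173 did not overlap, while at ZT0 on cal. res. and at ZT8 on ctrl. all GR LKO livers lay below all WT livers.

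On ctrl. the median of Slc22a7 was 31.2 CPM for WT (range 5.34 to 59.7) and 22.2 for mutants (range 6.83 to 41.7). Its level in ZT0 WT replicate 3 was 5.34 CPM against 26.9 and 37.8 in the other livers of the group, and in ZT20 GR LKO replicate 1 it was 6.98 against 32.1 and 41.7. These 2 libraries were also less like their groups over all genes, with median r of 0.9498 and 0.9378, and the cause was not tested. Under restriction it was 7.05 for WT (range 2.61 to 26.8) and 5.58 for mutants (range 1.83 to 32.2). At no time point on either diet were all GR LKO livers above all WT livers, and at 2 of 6 on ctrl., ZT4 and ZT8, all were below. Its day-average log2 fold changes were -0.35 (SE 0.186) on ctrl. and -0.28 (SE 0.195) on cal. res., and with livers left out they ran from -0.52 to -0.0972 and from -0.41 to -0.09, so their size is uncertain.

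**Figure D1:**
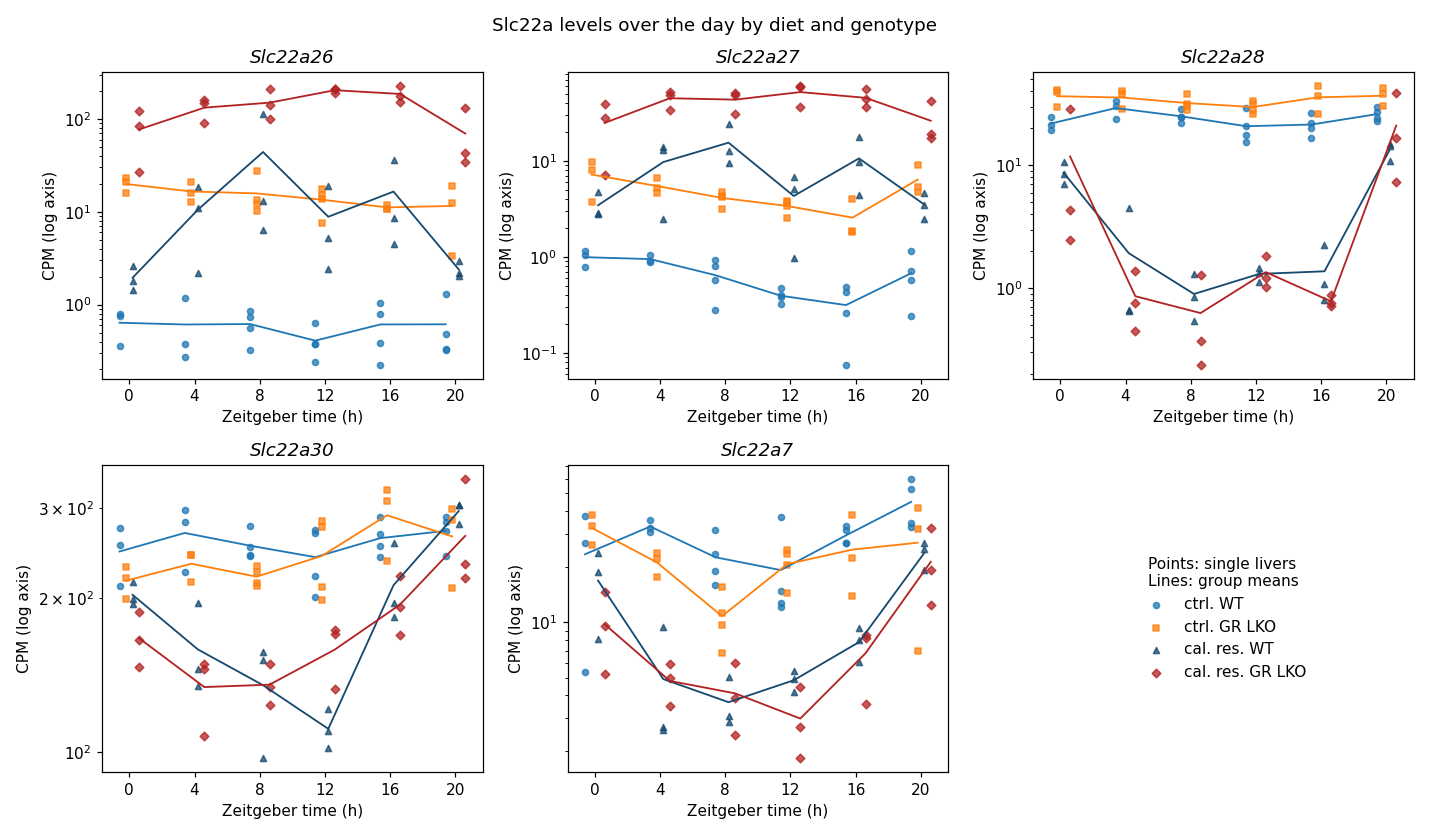
CPM on a log axis against Zeitgeber time in h for the 5 genes in the time series; points are single livers and lines join group means, for WT and GR LKO on ctrl. and cal. res. Slc22a26 and Slc22a27 separate by genotype on both diets, with GR LKO medians of 145 and 40.9 CPM on cal. res., while Slc22a28, Slc22a30 and Slc22a7 overlap at most times.

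Levels per transcript length place the members in different orders in 2 of the groups. With the longest annotated transcript as length, ctrl. WT livers of the series had medians of 100.3 CPM per kb for Slc22a30, 15.7 for Slc22a7, 12 for Slc22a28, 0.266 for Slc22a27 and 0.153 for Slc22a26. The last pair overlapped in range, as did Slc22a7 and Slc22a28. In cal. res. GR LKO livers the medians per kb were 64.6 for Slc22a30, 50.7 for Slc22a26, 19 for Slc22a27, 2.81 for Slc22a7 and 0.62 for Slc22a28. Each gene overlapped in range with the next in this order, which pools 6 time points, and at ZT12 alone the median of Slc22a26 (73.7 CPM per kb) was above that of Slc22a30 (65.4).

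Diet, tested in the separate WT experiment at ZT12, moved all 5 members, in opposite directions. Slc22a26 and Slc22a27 were higher on cal. res. and Slc22a28, Slc22a7 and Slc22a30 were lower. Of all 13062 genes tested, 23.5% were higher and 23.6% lower at an adjusted p under 0.05, so calls of either direction were common.

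Slc22a26 was at 0.2, 0.576 and 0.0791 CPM in the ctrl. livers and at 11.1, 27 and 13.9 in the cal. res. livers. The ctrl. livers held 8, 22 and 3 counts, and every cal. res. liver lay above them. The log2 fold change was 5.91 (SE 0.578, adjusted p = 0.00044), or 60.3-fold, higher in 3 of 3 livers. Without 1 liver it ran from 5.445 to 6.907, so the fold is uncertain. Slc22a27 was at 0.175, 0.34 and 0.105 CPM on ctrl. and at 5.73, 16.2 and 11.1 on cal. res. The groups did not overlap, and the log2 fold change was 5.71 (SE 0.531, adjusted p = 0.00038), or 52.4-fold, higher in 3 of 3 livers. The ctrl. livers held 4 to 13 counts of Slc22a27. Without 1 liver its log2 fold change ran from 5.327 to 6.25, so this fold is uncertain too.

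Slc22a28 moved the other way and nearly vanished. It held 11.9, 11.2 and 18.9 CPM on ctrl. and 0.255, 0.104 and 0.191 on cal. res., which were 9, 4 and 7 counts. Its log2 fold change was -6.25 (SE 0.348, adjusted p = 8.67e-05), lower by 75.9-fold in 3 of 3 livers. Slc22a7, the hepatocyte uptake carrier, held 39.3, 47.7 and 59 CPM on ctrl. and 10.3, 2.99 and 4.1 on cal. res. Every restricted liver was below every control liver, with a log2 fold change of -3.08 (SE 0.427, adjusted p = 0.00148). Without 1 liver it ran from -3.775 to -2.755. Slc22a30 held 136.5, 127 and 186 CPM on ctrl. and 78.9, 74.9 and 84.1 on cal. res. It fell least, with a log2 fold change of -0.92 (SE 0.146, adjusted p = 0.00248), lower in 3 of 3 livers.

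These 5 calls held in every alternative fit run, including 6 fits that each left out 1 liver. The ZT12 WT livers of the time series, where diet and library set cannot be told apart, gave the same 5 directions, with smaller log2 fold changes for Slc22a27 (3.42), Slc22a28 (-4.01), Slc22a26 (4.40) and Slc22a7 (-1.99) and a larger one for Slc22a30 (-1.13), so the size of these changes is less certain than their direction. Nr3c1 itself was at 88.7 to 95.7 CPM on ctrl. and 84.3 to 88.4 on cal. res. (log2 fold change -0.08, SE 0.0634, adjusted p = 0.317, not called).

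**Figure D2:**
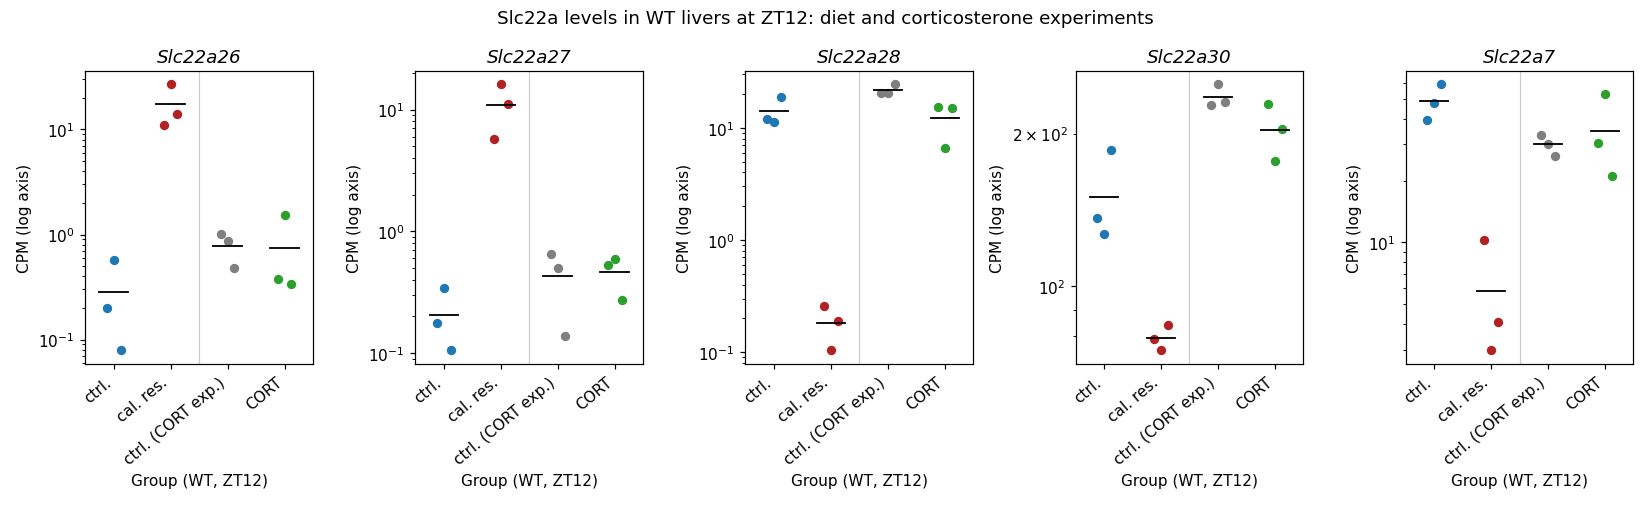
CPM on a log axis in each WT liver at ZT12 of the diet experiment (ctrl. and cal. res., 3 livers each) and the corticosterone experiment (control and CORT, 3 livers each); bars are means. Slc22a26 and Slc22a27 sit higher and Slc22a28, Slc22a30 and Slc22a7 lower on cal. res., and CORT livers overlap with their controls except for Slc22a28.

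Daily corticosterone given to control-fed WT mice changed none of the members by the test, while it raised known GR targets. Slc22a27 stayed below the count filter, at 0.646, 0.498 and 0.137 CPM in control livers and 0.53, 0.598 and 0.272 in CORT livers. Of the 4 members tested, 0 were called by edgeR and 1, Slc22a28, had an unadjusted p under 0.05; DESeq2 also called 0. Over all 11523 genes tested, 4.47% were higher and 3.64% lower, 935 genes in all, and without single livers this number ran from 206 to 1008.

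Slc22a28 held 20.3, 20.4 and 24.5 CPM in control livers and 15.4, 6.58 and 14.9 in CORT livers. All CORT livers were below all control livers, yet the log2 fold change of -0.82 (SE 0.298) did not pass (adjusted p = 0.135). Without 1 liver it ran from -1.015 to -0.5223. Slc22a30 held 228, 250.3 and 230 CPM in control livers and 229, 177 and 204 in CORT livers, which overlapped (log2 fold change -0.22, SE 0.114, adjusted p = 0.284). Without 1 liver its log2 fold change ran from -0.3097 to -0.1288. Slc22a7 and Slc22a26 had log2 fold changes of 0.21 (SE 0.305, adjusted p = 0.713) and -0.05 (SE 0.654, adjusted p = 0.972), and each changed sign when single livers were left out. A p that misses the threshold does not show that levels were equal. The difference between the effects of diet and of corticosterone was not tested.

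Fkbp5, a GR target that encodes a co-chaperone of the receptor, rose from 38.1 ± 16.8 to 236 ± 51 CPM (SD, n = 3 each) with corticosterone (log2 fold change 2.63, adjusted p = 0.00797, higher in 3 of 3 livers), and in the diet experiment its log2 fold change was 2.36 (adjusted p = 0.00049). Tsc22d3 and Per1 rose with corticosterone by log2 fold changes of 1.48 (adjusted p = 0.00141) and 2.04 (adjusted p = 0.00247). Of 11 GR targets tested, 11 were higher with corticosterone, with a median log2 fold change of 2.4 against -0.00668 over all genes, and 9 were higher on cal. res. In GR LKO livers, 9 of 11 were lower on cal. res. (day average) and 7 of 11 lower on ctrl., and at ZT12 alone 9 and 6 were lower. Rhythms were called for 6 of 11 in WT and 7 in GR LKO livers on ctrl., and for 5 and 5 on cal. res.

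Daily rhythm was tested with JTK_CYCLE at a period of 24 h, with an adjusted p under 0.05 and an amplitude over 0.1 on the variance-stabilized scale. All amplitudes given are those of a cosinor fit, a cosine wave of 24 h, and not of JTK_CYCLE itself. On ctrl. in WT livers 0 of 5 members were called, where 26.3% of all genes were. Of the 5, 1 (Slc22a27) had an unadjusted p under 0.05. The edgeR test over time points called it (adjusted p = 0.0435), as it did 50% of all genes. Among genes past the count filter alone, JTK_CYCLE called Slc22a27 too (adjusted p = 0.038). On ctrl. in GR LKO livers 1 of 5 was called, Slc22a27 (22.3% of all genes); Slc22a7 had an unadjusted p under 0.05 (adjusted p = 0.0876, amplitude 0.413) and was called without replicate 1 (adjusted p = 0.0212). On cal. res. 3 of 5 were called in WT (21.6% of all genes) and 3 of 5 in GR LKO livers (19.8%). The edgeR test over time points called 5 of 5 in WT there (64.3% of all genes by that test), Slc22a26 (adjusted p = 0.013) and Slc22a27 (adjusted p = 0.0281) in addition, and in GR LKO livers (60.5%) it called Slc22a28 (adjusted p = 0.000108) but not Slc22a26 (adjusted p = 0.0584). Which genotype showed a call was not tested as a difference between genotypes.

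On cal. res. the lower-on-diet members peaked late in the night. Slc22a28 in WT livers held 10.8, 14.3 and 15 CPM at ZT20 in order of level and 0.545, 0.846 and 1.3 at ZT8. The 3 livers at ZT20 lay above all WT livers of the other times. JTK_CYCLE called Slc22a28 there (adjusted p = 0.0209, peak ZT20), with a cosinor amplitude of 1.16. Without the ZT8 WT replicate 2 liver, left out after seeing the data, that adjusted p was 0.0608. In GR LKO livers Slc22a28 also peaked at ZT20 but missed the threshold of JTK_CYCLE (adjusted p = 0.0938, amplitude 1.24), while the edgeR test over time points called it (adjusted p = 0.000108).

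Slc22a30 in WT livers on cal. res. averaged 296 ± 14.1 CPM at ZT20 and 111 ± 9.63 at ZT12 (SD, n = 3 each), with all 3 livers at ZT20 above all at ZT12. JTK_CYCLE gave an adjusted p of 0.00728 (amplitude 0.599, peak ZT20) in WT and 0.0179 (amplitude 0.427, peak ZT20) in GR LKO livers. Slc22a7 in WT livers on cal. res. ranged from 19.2 to 26.8 CPM at ZT20 and from 2.89 to 5.04 at ZT8, without overlap. Its JTK_CYCLE adjusted p was 0.00728 (amplitude 1.03) in WT and 0.0294 (amplitude 0.843) in GR LKO livers, both with a peak at ZT20.

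Of the members higher on cal. res., JTK_CYCLE called Slc22a26 there in GR LKO livers and not in WT (adjusted p = 0.283, with a larger amplitude of 1.02 and the same peak at ZT12), and Slc22a27 in neither genotype (adjusted p = 0.651 in WT and 0.207 in GR LKO livers). Slc22a26 in GR LKO livers on cal. res. averaged 204 ± 12.6 CPM at ZT12 and 69.7 ± 53.9 at ZT20 (SD, n = 3 each), with JTK_CYCLE adjusted p = 0.0179 (amplitude 0.854, peak ZT12). Leaving out ZT0 GR LKO replicate 1, chosen after seeing the data, gave adjusted p = 0.0526 for Slc22a26 and 0.0515 for Slc22a7. That liver held 27 CPM of Slc22a26 and 28.6 of Slc22a28, against 83 and 121 and against 4.33 and 2.48 in the other livers of its group. Slc22a27 in GR LKO livers on ctrl. peaked at ZT0 (7.18 ± 3.13 CPM, SD, n = 3) with adjusted p = 0.0331 (amplitude 0.315) by JTK_CYCLE.

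Each rhythm call on cal. res. was lost in all 3 fits that left out 1 replicate number from every time point, which kept 12 of 18 livers. The call of Slc22a27 on ctrl. was lost without replicate 1, 2 or 3 and held without replicate 4 (adjusted p = 0.0387), a number that few groups have. Over all genes the number called fell as well, for example from 4026 to between 392 and 745 for the daily rhythm in WT livers on cal. res. The adjusted p of the members' calls then ranged from 0.0979 to 0.179 for Slc22a7, 0.164 to 0.321 for Slc22a28 and 0.072 to 0.179 for Slc22a30 in WT on cal. res. In GR LKO livers it ranged from 0.133 to 0.758 for Slc22a7, 0.0968 to 0.26 for Slc22a26 and 0.11 to 0.339 for Slc22a30 on cal. res. For Slc22a27 on ctrl. it was 0.161, 0.08 and 0.444 without replicates 1, 2 and 3.

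On chromosome 19, 4 of the 5 members lie in 1 row of 6 Slc22a genes, all on the minus strand of GRCm38, from chr19:7673061-8405111, a span of 732051 bases. The order is Slc22a19, Slc22a26, Slc22a27, Slc22a28, Slc22a29, Slc22a30, with 0 annotated protein-coding genes between neighbours. Slc22a7 lies apart, at chr17:46432183-46438457 on the minus strand. The copies share sequence, which limits how well short reads are assigned to them. Shared words and transcript lengths were taken from GENCODE vM21; the annotation behind the deposited counts is not given in the sources used here and may differ. Of the 31-base words in Slc22a28 transcripts, 68.2% also occur in other genes, 67% in Slc22a30; for Slc22a27 it is 46.9%, mostly Slc22a29, for Slc22a30 42.9%, and for Slc22a26 11.9%, nearly all of it in AC115715.1. Slc22a7 shares 0. By this annotation, levels of Slc22a28, Slc22a27 and Slc22a30 are uncertain, and those of Slc22a26 and Slc22a7 rest mostly on sequence of their own.

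**Figure D3:**
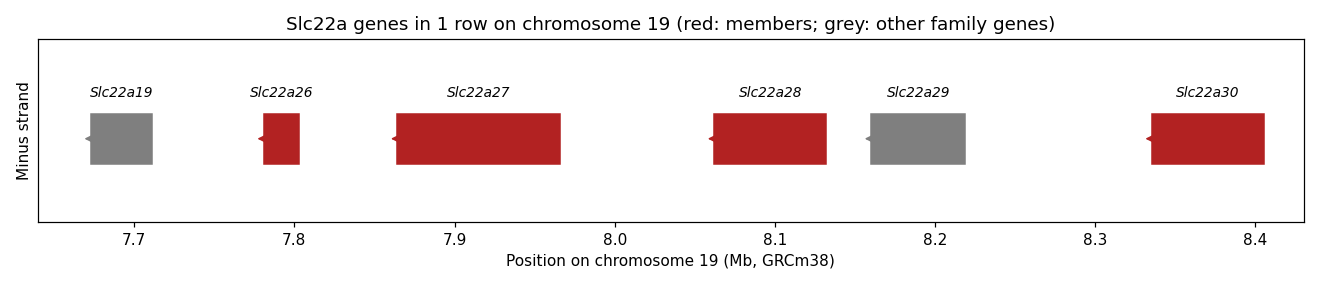
Positions in Mb on chromosome 19 (GRCm38) of the 6 Slc22a genes of the row, drawn to scale from 7673061 to 8405111; boxes span each gene and arrowheads point in the direction of transcription on the minus strand. The 4 members and the 2 other genes follow each other with 0 protein-coding genes between neighbours.

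The sum of the 6 copies does not depend on how reads were split among them. The sum can still depend on reads shared with genes outside the 6, such as AC115715.1 for Slc22a26. In the diet experiment it was 149, 139 and 205 CPM on ctrl. and 96.3, 119 and 109.8 on cal. res. Every cal. res. liver was lower, and the log2 fold change was -0.60 (SE 0.158, adjusted p = 0.0178). With corticosterone it was -0.26 (SE 0.118, adjusted p = 0.223). By JTK_CYCLE the sum was called in WT livers on cal. res. only (adjusted p = 0.0435, amplitude 0.427, peak ZT20), and not in 3 of 3 fits that left out a replicate number. At ZT12 in the series, Slc22a30 made up 91.7% of the sum in WT and 83.1% in GR LKO livers on ctrl., and 87.9% and 37.6% on cal. res. At ZT12 on cal. res. the sum averaged 126.7 CPM in WT and 421.8 in GR LKO livers, where Slc22a26 made up 48.6%. Over all times on cal. res. it averaged 214 and 362.4 CPM. At ZT20 it averaged 316.1 and 385.3 CPM, and the genotypes overlapped.

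Promoter windows in the RefSeq-based table (GRCm38.p6) were found for 4 of the 5 members and for 6 of 6 genes of the row; Slc22a7 had no entry. They are shown because neighbouring copies moved in opposite directions with diet. Capitals mark matches on either strand to ACANNNTGT (a pair of GR half-sites, in 6.85% of 32851 promoters of the table), TTCNNNGAA (a pair of STAT half-sites, 8.3%), GTAAACA (forkhead, 3.65%), GTTAAT (HNF1 half-site, 7.1%) or CACGTG (E-box, 7.15%). Slc22a28 (chr19:8131933-8132232, minus strand) and Slc22a30 (chr19:8405056-8405355, minus strand) were 98% identical over 294 aligned bases, although Slc22a28 fell much more than Slc22a30 on cal. res., a difference that was not tested. Slc22a29 (chr19:8218851-8219150, minus strand) was 81.4% identical to Slc22a28. All 3 hold 1 match to ACANNNTGT, and Slc22a29 also holds 1 to GTTAAT.
Slc22a28: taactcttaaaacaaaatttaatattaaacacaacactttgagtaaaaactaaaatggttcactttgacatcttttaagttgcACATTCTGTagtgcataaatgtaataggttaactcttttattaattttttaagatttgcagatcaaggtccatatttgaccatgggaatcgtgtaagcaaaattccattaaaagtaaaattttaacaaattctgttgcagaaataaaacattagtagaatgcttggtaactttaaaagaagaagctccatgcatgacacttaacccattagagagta
Slc22a29: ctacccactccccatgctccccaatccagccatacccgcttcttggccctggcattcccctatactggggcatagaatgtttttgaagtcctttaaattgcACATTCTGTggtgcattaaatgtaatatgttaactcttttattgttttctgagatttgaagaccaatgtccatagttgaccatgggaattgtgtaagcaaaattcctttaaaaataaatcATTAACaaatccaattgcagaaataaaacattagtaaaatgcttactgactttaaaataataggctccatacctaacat
Slc22a30: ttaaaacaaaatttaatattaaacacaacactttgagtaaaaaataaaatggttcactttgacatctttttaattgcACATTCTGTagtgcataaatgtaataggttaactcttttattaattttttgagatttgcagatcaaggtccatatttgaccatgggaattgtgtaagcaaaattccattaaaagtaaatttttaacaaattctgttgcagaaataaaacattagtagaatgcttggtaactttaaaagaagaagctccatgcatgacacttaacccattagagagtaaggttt

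The promoters of Slc22a26 and Slc22a27 were unlike each other, 54.5% identical over 277 aligned bases, and neither held ACANNNTGT. Slc22a29, which was also higher in GR LKO livers, did hold 1 match to it, so the motif did not separate the genes by genotype difference. Slc22a26 (GRCm38.p6, RefSeq, chr19:7802618-7802917, minus strand) held 1 match to TTCNNNGAA, and Slc22a27 (chr19:7965978-7966277, minus strand) held 0 of the 5 motifs. A match describes letters in this window only.
Slc22a26: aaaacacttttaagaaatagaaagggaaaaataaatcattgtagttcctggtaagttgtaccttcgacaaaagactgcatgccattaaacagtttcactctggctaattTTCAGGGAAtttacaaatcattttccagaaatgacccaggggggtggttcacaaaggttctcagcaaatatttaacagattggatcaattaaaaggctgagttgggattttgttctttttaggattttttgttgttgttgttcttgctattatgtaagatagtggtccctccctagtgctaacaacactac
Slc22a27: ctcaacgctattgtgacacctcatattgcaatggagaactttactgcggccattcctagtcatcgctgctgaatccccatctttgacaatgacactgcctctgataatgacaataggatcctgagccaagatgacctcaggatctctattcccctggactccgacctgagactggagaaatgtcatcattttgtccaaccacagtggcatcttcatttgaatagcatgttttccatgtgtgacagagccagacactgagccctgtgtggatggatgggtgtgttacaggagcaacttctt

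Across the time series, Slc22a26 and Slc22a27 were each other's nearest gene among 11150 genes, with Pearson r of 0.957 over 36 cal. res. livers and 0.903 over 42 ctrl. livers, which share genotype groups. Next for Slc22a26 were Cyp2b9, a cytochrome P450 (mean r 0.874), and Hamp2 (0.859), and for Slc22a27 Cyp2a22 (0.881) and Cyp2b9 (0.862). After group means were removed, r between Slc22a26 and Slc22a27 was 0.841 on cal. res. and 0.296 on ctrl. Slc22a28 was most like Itih1 (0.652), Fam89a (0.633) and Pon1 (0.63), Slc22a30 like Adh6-ps1 (0.726), Canx (0.696) and Slc17a3 (0.682), and Slc22a7 like Adh6-ps1 (0.746), Mup1 (0.715) and Dhrs1 (0.709).

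Of 19 other Slc22 genes listed, 8 passed the filter in the diet experiment: 2 were higher, 3 lower and 3 not called. Over all genes 23.5% were higher and 23.6% lower there. Slc22a29, the copy that shares most 31-base words with Slc22a27, was higher on cal. res. (log2 fold change 2.23, SE 0.513, adjusted p = 0.0107), as was Slc22a5, the carnitine carrier (0.95, SE 0.22, adjusted p = 0.0108). Slc22a3 (-2.60), Slc22a4 (-0.63) and Slc22a23 (-0.47) were lower. Slc22a15, Slc22a18 and Slc22a21 were not called by edgeR, and DESeq2 called Slc22a18 in addition (-0.18, adjusted p = 0.0459). In the ZT12 livers of the time series the calls of Slc22a3 (-0.22, adjusted p = 0.607), Slc22a4 (0.07, adjusted p = 0.852) and Slc22a29 (1.83, adjusted p = 0.123) were lost and Slc22a18 was called (-0.34, adjusted p = 0.0202). The call of Slc22a4 was lost in 5 of 6 fits without 1 liver, with adjusted p of 0.144 and 0.091 without ctrl. replicates 1 and 2 and 0.0533, 0.0766 and 0.123 without cal. res. replicates 1, 2 and 3. With corticosterone 0 of 7 were called by edgeR, 3 had an unadjusted p under 0.05, and DESeq2 called 1, Slc22a5, which edgeR also called without CORT replicate 1 (0.82, adjusted p = 0.0497).

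Slc22a29 is not among the members, and its genotype difference was tested. Averaged over the day it was higher in GR LKO livers by a log2 fold change of 1.60 (SE 0.167, adjusted p = 1.89e-08) on cal. res. and 2.07 (SE 0.289, adjusted p = 1.9e-06) on ctrl., with all GR LKO above all WT at 5 of 6 time points on each diet. It shares 38.7% of its 31-base words with Slc22a27, so its reads are not independent of that member. On ctrl. Slc22a5 (0.33) and Slc22a15 (0.40) were higher too, and on cal. res. Slc22a15 (0.35) was higher and Slc22a4 (-0.54) lower. With 1 replicate number left out, the ctrl. calls were lost for Slc22a5 (adjusted p = 0.0782, replicate 2) and Slc22a15 (adjusted p = 0.0565, replicate 3). At the day average, 15.6% of all genes were higher and 17.3% lower on cal. res., and 10% higher and 8.59% lower on ctrl. At ZT12 alone it was 7.42% and 7.84% on cal. res., where Slc22a29 (2.37) and Slc22a23 (0.43) were higher. On ctrl. it was 0.814% and 1.27%, and 0 of 8 were called by edgeR (1 at an unadjusted p under 0.05, Slc22a29, and 1 of 8 called by DESeq2). Without 1 library, the ZT12 genes called were 899 to 1329 instead of 1795 on cal. res. and 137 to 199 instead of 238 on ctrl. The ZT12 call of Slc22a23 on cal. res. was lost without WT replicate 3 (adjusted p = 0.0594) and with the replicate number as a block (adjusted p = 0.0678), and on ctrl. Slc22a29 reached an adjusted p of 0.05 without WT replicate 1 and was called in the edgeR fit of all libraries of the diet (2.32, adjusted p = 0.0416). A daily rhythm was called for 3 of 15 other Slc22 genes in WT and 2 of 15 in GR LKO livers on ctrl., and for 2 of 15 and 5 of 16 on cal. res. Of all genes it was 26.3% and 22.3% on ctrl., and 21.6% and 19.8% on cal. res.

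Of 22 other hepatic anion carriers tested for diet, 6 were higher and 7 lower (median log2 fold change 0.0705, all genes -1.8e-06). Over all genes 23.5% were higher and 23.6% lower, so these counts are not read as a result about the carriers. Among them Slco1a1 fell by 4.63 and Slco1b2 by 0.47 on the log2 scale, and Abcc2, an export pump of the bile canaliculus, rose by 0.46. With corticosterone 1 of 20 was higher and 2 lower (4.47% and 3.64% of all genes). In GR LKO livers (day average) 8 of 21 were higher and 4 lower on cal. res., among them Abcc3 (0.79), and 7 and 2 of 21 on ctrl. Of all genes it was 15.6% and 17.3% on cal. res., and 10% and 8.59% on ctrl. At ZT12 alone 5 of 21 were higher and 2 lower on cal. res., and 0 of 20 were called by edgeR on ctrl. (3 at an unadjusted p under 0.05, 1 by DESeq2). The ZT12 shares of all genes were 7.42% higher and 7.84% lower on cal. res., and 0.814% and 1.27% on ctrl. Rhythms were called for 14 of 22 (WT) and 14 of 21 (GR LKO) on ctrl. and for 11 and 14 of 22 on cal. res. Of all genes 26.3% (WT) and 22.3% (GR LKO) were called on ctrl., and 21.6% and 19.8% on cal. res.

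Genes known for sex-biased liver expression moved with diet in these male livers, beside the members. Over all genes 23.5% were higher and 23.6% lower with diet, and 4.47% and 3.64% with corticosterone. In GR LKO livers (day average) it was 15.6% and 17.3% on cal. res., and 10% and 8.59% on ctrl. At ZT12 alone it was 7.42% and 7.84% on cal. res., and 0.814% and 1.27% on ctrl. Of 14 female-biased genes tested 14 were higher on cal. res. (median log2 fold change 3.54), among them Cyp2b9 (10.16), and of 20 male-biased genes 19 were lower (median -3.79), among them Mup7 (-9.17) and Mup20 (-6.34). With corticosterone 0 of 7 female-biased genes were called by edgeR (1 at an unadjusted p under 0.05, 0 by DESeq2) and 0 of 20 male-biased genes (6 at an unadjusted p under 0.05, 3 by DESeq2). In GR LKO livers (day average), 9 of 17 female-biased genes were higher and 3 lower on cal. res. and 9 of 14 higher on ctrl., with Cyp2a4 at 4.01 and 5.53, and 8 of 19 and 12 of 20 male-biased genes were lower and 3 and 2 higher. At ZT12 alone 7 of 15 female-biased genes were higher and 1 lower on cal. res. and 5 of 7 higher on ctrl., while 5 of 18 male-biased genes were lower and 1 higher on cal. res. and 5 of 20 lower on ctrl. Rhythms were called for 2 of 19 female-biased and 7 of 20 male-biased genes in WT on ctrl., and for 2 of 18 and 6 of 20 in GR LKO livers. On cal. res. it was 5 of 19 and 4 of 20 in WT and 6 of 19 and 8 of 20 in GR LKO livers. Of all genes 26.3% (WT) and 22.3% (GR LKO) were called rhythmic on ctrl., and 21.6% and 19.8% on cal. res. Whether the members' diet response depends on these genes was not tested.

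Markers of cell types also moved, in lists so short that 1 or 2 calls can match the share of all genes. In GR LKO livers (day average) 15.6% of all genes were higher and 17.3% lower on cal. res., and 10% and 8.59% on ctrl. At ZT12 alone it was 7.42% and 7.84% on cal. res., and 0.814% and 1.27% on ctrl. With diet it was 23.5% and 23.6%, and with corticosterone 4.47% and 3.64%. Hepatocyte markers were lower in GR LKO livers (day average) for 5 of 6 on each diet (median log2 fold change -0.34 on cal. res. and -0.22 on ctrl.), and on cal. res. endothelial markers were higher for 6 of 6 (0.22). On cal. res. 1 of 6 stellate, 2 of 4 lymphocyte, 1 of 4 cholangiocyte and 1 of 5 erythrocyte markers were higher, and 0 of 8 Kupffer cell, 0 of 2 neutrophil and 0 of 2 adipocyte markers; on ctrl. 1 of 2 adipocyte and 1 of 5 erythrocyte markers were. At ZT12 alone on cal. res. 4 of 6 hepatocyte markers (median -0.648) and 1 of 3 cholangiocyte markers were lower, and 4 of 8 Kupffer cell (median 1.05), 1 of 6 endothelial and 1 of 5 erythrocyte markers higher; on ctrl. 3 of 6 hepatocyte markers were lower (median -0.361) and 1 of 2 adipocyte markers higher. With diet, 3 of 6 hepatocyte markers were higher and 1 lower, 4 of 6 endothelial, 2 of 4 cholangiocyte and 1 of 1 adipocyte markers higher, 2 of 6 stellate markers higher and 2 lower, and 2 of 5 lymphocyte, 1 of 8 Kupffer cell and 1 of 5 erythrocyte markers lower. With corticosterone, 2 of 8 Kupffer cell markers and 1 of 6 hepatocyte markers were higher, and 1 of 4 cholangiocyte, 1 of 6 endothelial and 1 of 6 stellate markers lower. Hepatocyte markers summed to 98250 to 165400 CPM in the cal. res. series, led by Alb, and endothelial markers to 149 to 237 CPM, led by Clec4g, with none of either list at 0. Their part in the members' values was not tested.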

How the data were processed

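RNA was measured by sequencing in 90 mouse livers. The authors used Salmon 1.8.0 and tximport 1.18.0 to obtain estimated counts per gene after read checks in FastQC 0.11.9. These are the values of the 4 deposited tables, and a table of variance-stabilized values with 6 columns was not used. Counts were rounded and scaled by TMM (edgeR 4.0.16, R 4.3.3). Genes passed filterByExpr at a minimum count of 10. Groups were compared by edgeR quasi-likelihood tests with Benjamini-Hochberg adjustment at 0.05. Rhythm was tested by JTK_CYCLE (exact null distribution, period 24 h, Bonferroni over 6 phases, then Benjamini-Hochberg) on DESeq2 1.42.0 variance-stabilized values. A call also needed a cosinor amplitude over 0.1 on these values. The methods were tested on simulated data.

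Alternatives were DESeq2 Wald tests, RLE factors, no count filter, the replicate number as a block, a fit of all libraries of a diet, the ZT12 livers of the time series, log2 CPM with a prior count of 2, no minimum amplitude, an edgeR test over time points, and fits without single libraries, replicate numbers or time points. Fits without cal. res. ZT8 WT replicate 2 or ZT0 GR LKO replicate 1 were chosen after seeing the data. The counts of the 6 chromosome 19 copies were also added into 1 feature.

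The members and the lists (other Slc22 genes, hepatic anion carriers, female-biased and male-biased liver genes, GR targets and cell type markers) were chosen with earlier results of these data known. Of the genes first listed, 2 are not reported here, and list counts leave them out. Genes named for a comparison are the members, Nr3c1, other Slc22 genes that reach 1 CPM in a group, up to 4 called genes of each other list with the highest level, Fkbp5, Tsc22d3 and Per1, and the 3 genes most like each member. Others are named only for their place, their shared sequence or as markers of tissue. Sequence shared between genes was counted in 31-base words of transcripts in GENCODE vM21.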

Additional observations from a re-analysis of the deposited data

Results flagged for a closer look

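Outliers were looked for in 7 genes in each of the 6 groups of 4 livers; groups of 3 were not searched. Of these 42 combinations of gene and group, 2 held a liver far from the others, and chance flags about 1 in 20. Slc22a7 was at 37.1 CPM in ctrl. ZT12 WT replicate 1, against 12.1 to 14.8 in the other livers. Slc22a26 was at 1.31 CPM in ctrl. ZT20 WT replicate 3, against 0.325 to 0.487.

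In 2 genes the genotype difference ran in opposite directions, with no overlap between genotypes in either place. They were picked from many comparisons of gene, time point and diet. With 3 livers per group on cal. res., separation without overlap can arise by chance, so no reversal is read from them. On cal. res., Slc22a30 had a log2 fold change of 0.51 at ZT12 and -0.28 at ZT0, and Slc22a23 had 0.44 at ZT12 and -0.21 at ZT20. These differences between times were not tested.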

How the results depend on the processing

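The diet calls of the 5 members kept direction and threshold in all alternatives run, with log2 fold changes from -3.77 to -1.99 for Slc22a7, 4.40 to 6.91 for Slc22a26, 3.42 to 6.25 for Slc22a27, -6.54 to -4.01 for Slc22a28 and -1.13 to -0.731 for Slc22a30. For Slc22a7, Slc22a26, Slc22a27 and Slc22a28 the value nearest 0 came from the ZT12 livers of the time series. Of 95 alternative values for the members' diet and corticosterone tests, 90 kept both and 5 changed sign, all under corticosterone. Of 582 values for other Slc22 genes, 530 kept both, 12 missed the threshold, 9 came past it and 31 changed sign. Of 265 genotype values of the members, 264 moved by less than the spread between replicates. Of 160 rhythm values of the members, 129 kept their side, 25 missed the threshold and 6 came past it. Values with fewer livers come from smaller samples. For the other changes below the cause was not tested. At the depth of the shallowest library, levels under 0.299 CPM cannot be told from 0. With 3 livers in most groups, small changes may be missed.

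With the replicate number as a block, the number of genes called was 534 for corticosterone instead of 935, 889 for genotype at ZT12 on cal. res. instead of 1795, and 101 on ctrl. instead of 238. Replicate numbers did not pair livers (r from -0.0446 to 0.187 in the diet experiment). With the block the ZT12 genotype call of Slc22a23 on cal. res. was lost (0.434, adjusted p = 0.0678). The block also turned Slc22a18 for genotype over the day on ctrl. to -0.00373 from 0.00206. The fit of all libraries of a diet called 2805 (cal. res.) and 537 (ctrl.) at ZT12, and DESeq2 called 563 on ctrl. In the ZT12 livers of the time series, the diet log2 fold change was 0.0672 for Slc22a4 and 0.0943 for Slc22a15, opposite in sign to the diet experiment. There the calls of Slc22a3 (-0.225 instead of -2.60, adjusted p = 0.607) and Slc22a29 (1.83 instead of 2.23, adjusted p = 0.123) were lost, and Slc22a18 was called (-0.342, adjusted p = 0.0202). DESeq2 also called Slc22a18 for diet (adjusted p = 0.0459). Without the count filter the diet call of Slc22a4 was lost (adjusted p = 0.0528).

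Without 1 library, the number of genes called for corticosterone ranged from 206 to 1008: 421, 206 and 438 without control replicates 1, 2 and 3, and 446 and 395 without CORT replicates 1 and 3. For genotype at ZT12 on cal. res. it ranged from 899 to 1329: 1099 and 1032 without WT replicates 2 and 3, and 1193, 1137 and 899 without GR LKO replicates 1, 2 and 3. On ctrl. at ZT12 it ranged from 137 to 199: 137 and 141 without WT replicates 2 and 3, and 144 without GR LKO replicate 1. Fits over the day could leave out more than 1 library, such as 1 replicate number from every group. There the number ranged from 2807 (without replicate 3) to 4263 on cal. res. On ctrl. it ranged from 1487 (without replicate 2, and 1527 without replicate 1) to 2206.

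Some calls were gained. For corticosterone, Slc22a5 was called by DESeq2 (adjusted p = 0.0094) and without CORT replicate 1 (0.815, adjusted p = 0.0497). For genotype at ZT12 on ctrl., Slc22a29 was called by DESeq2 (adjusted p = 0.0354) and in the fit of all libraries of the diet (2.32, adjusted p = 0.0416). For genotype over the day, Slc22a5 on cal. res. was called without ZT12 (0.157, adjusted p = 0.0458) and Slc22a4 on ctrl. without ZT0 (-0.32, adjusted p = 0.0388).

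With livers or a time point left out, genotype values over the day ran for Slc22a7 from -0.52 to -0.0972 on ctrl. and from -0.41 to -0.09 on cal. res., and for Slc22a28 on cal. res. from -0.531 to -0.0426.

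Signs changed with livers left out in these ranges of log2 fold change. For diet, corticosterone and ZT12 values, each fit left out 1 library. Fits over the day could leave out more, such as 1 replicate number from every group. For diet, Slc22a21 ran from -0.145 to 0.397. For corticosterone, Slc22a7 ran from -0.22 to 0.475, Slc22a26 from -1.11 to 0.293, Slc22a18 from -0.0374 to 0.0757 and Slc22a21 from -0.408 to 0.485. For genotype at ZT12 on cal. res., Slc22a5 ran from -0.199 to 0.03999, Slc22a15 from -0.0649 to 0.145, Slc22a18 from -0.031 to 0.149, Slc22a21 from -0.168 to 0.153 and Slc22a28 from -0.239 to 0.222. On ctrl., Slc22a3 ran from -0.0444 to 0.656, Slc22a7 from -0.0499 to 0.648 and Slc22a30 from -0.072 to 0.093. For genotype over the day on cal. res., Slc22a3 ran from -0.281 to 0.0123, Slc22a21 from -0.0681 to 0.244 and Slc22a23 from -0.0326 to 0.0663. On ctrl., Slc22a3 ran from -0.00271 to 0.419 and Slc22a18 from -0.0164 to 0.0262.

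Signs of the genotype difference over the day also changed without 1 time point. On cal. res., Slc22a23 was -0.0769 without ZT12 and -0.00455 without ZT16. On ctrl., Slc22a18 was -0.0588 without ZT0 and -0.0118 without ZT16, and Slc22a23 was -0.0082 without ZT0 and -0.00346 without ZT12.

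For rhythms, the edgeR test over time points called 8123 genes in WT and 7713 in GR LKO livers on cal. res. It gave adjusted p of 0.013 for Slc22a26 and 0.0281 for Slc22a27 in WT on cal. res., 0.0584 for Slc22a26 and 0.000108 for Slc22a28 in GR LKO livers on cal. res., and 0.0435 for Slc22a27 in WT on ctrl. Among genes past the count filter alone, that of Slc22a27 in WT on ctrl. was 0.038 by JTK_CYCLE.

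With livers left out, JTK_CYCLE called 2340 to 3621 genes for WT on ctrl., 1188 to 3549 for mutants on ctrl., 392 to 3705 for WT on cal. res. and 305 to 3050 for mutants on cal. res. Adjusted p ranged on ctrl. in GR LKO livers from 0.0212 (without replicate 1) to 1 for Slc22a7 and from 0.0387 to 0.444 for Slc22a27. In WT on cal. res. it ranged from 0.0122 to 0.179 for Slc22a7, 0.0608 to 0.321 for Slc22a28, 0.0217 to 0.179 for Slc22a30 and 0.00907 to 0.555 for the sum of the copies. In GR LKO livers on cal. res. it ranged from 0.0515 to 0.758 for Slc22a7, 0.0526 to 0.26 for Slc22a26 and 0.0399 to 0.339 for Slc22a30. These ranges include the fits without cal. res. ZT8 WT replicate 2 or ZT0 GR LKO replicate 1, chosen after seeing the data.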
